A study of Mus musculus with 6 samples.

Results

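The genes described here carry fatty acids (FAs) from the blood into fat cells and prepare them for use. They were *Lpl*, *Gpihbp1*, and *Angptl4*, which act in the capillary, *Cd36* and *Slc27a1*, which act at the cell membrane, *Fabp3*, *Fabp4*, and *Fabp5*, which carry FAs in the cytosol, and *Acsl1* and *Acsl5*, which activate them. The 10 genes were a list of symbols, and every array probe whose RefSeq identifier maps to one of these symbols was used. All 10 were on the array with 13 probes in all, 2 each for *Lpl*, *Fabp3*, and *Acsl1* and 1 for each of the others, out of 19011 named genes and 35448 probes tested. All 13 probes were above background on all 6 arrays, so the filter on detection removed no probe of these genes.

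Interscapular BAT (iBAT) came from male mice of 16 weeks on a C57BL/6 background. The control group had 3 samples, and the *ob/ob* group, whose leptin gene is mutated in every cell of the body, had 3 as well. The labels name no treatment, do not describe the control genotype further, and do not say whether RNA of several mice was pooled. Each sample was hybridized with a single dye to 1 Agilent whole-genome array. The p values measure only the spread between these samples, which may be partly technical. *Lep* itself read 5.74, 4.57, and 5.30 on control arrays 1, 2, and 3 and 6.68, 5.83, and 9.33 on *ob/ob* arrays 1, 2, and 3, in log2 units of quantile-normalized signal, and this level does not test the mutation.

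Brown fat takes up FAs mainly from triglycerides of circulating lipoproteins. Lipoprotein lipase, made by adipocytes and moved to the capillary wall, splits these triglycerides, and the released FAs enter the cell, bind to carrier proteins, and are joined to coenzyme A. The acyl-CoA so formed is oxidized for heat or built into stored lipid.

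All values below are log2 units of signal of 1 probe after quantile normalization between arrays, in which 1 unit is a 2-fold step, and they are compared between arrays and never between probes of different genes. Between 83.5% and 89.9% of spots per array lay well above background, and no spot was saturated. The scanner software's own error for the signal of a spot was 10% to 14.6% over these 13 probes, and the number of arrays sets the precision. Arrays control 3 and *ob/ob* 3 stood apart from their groups. Over the tested probes, control 3 had a rank correlation of 0.915 and 0.944 with *ob/ob* 1 and 2, compared with 0.642 and 0.730 with control 1 and 2. *Ob/ob* 3 correlated at 0.858 and 0.770 with control 1 and 2, compared with 0.573 and 0.488 with *ob/ob* 1 and 2, and its spike-in controls were low, with a median of 4.01 compared with 6.19 to 7.10 on the other arrays. The labels were kept, and whether these 2 samples were exchanged was not tested. For *Lep*, every *ob/ob* array, *ob/ob* 3 included, was above every control array, as for 3.78% of all genes, and this does not test the labels. The changes of the 10 genes, of the lists of related genes, and of the genes named from those lists are therefore also given without these arrays. A single scan covered control 1, control 3, and *ob/ob* 1, and the other 3 arrays were scanned separately.

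No gene of the list passed the test between *ob/ob* and control iBAT. With limma, 0 of the 13 probes had an adjusted p under 0.05, and neither did any of the 35448 probes of the array, of which 1245, or 3.51%, had an unadjusted p under 0.05. Of the 10 genes, each read by its brightest probe, 6 were lower in mean in *ob/ob* mice, compared with 57.2% of all genes, and the lower mean of *Acsl1* rounds to a change of 0.00. The count was 7 with scaling to the 75th percentile of each array, where *Angptl4* turned lower, and 4 without control 1 or 2 or without *ob/ob* 1 or 2. Their median change of −0.06 compared with −0.09 over all genes. Leaving out 1 array moved this median to 0.47 without control 1 or *ob/ob* 2, 0.34 without control 2, 0.08 without *ob/ob* 1, −0.89 without control 3, and −0.91 without *ob/ob* 3, while the median of all genes stayed at −0.11 to −0.01. None of the 10 had an unadjusted limma p under 0.05 by its brightest probe, compared with 3.73% of all genes. The probe with the clearest difference was the dimmer of the 2 *Acsl1* probes, which was 7.11-fold lower in *ob/ob* mice with no overlap between groups, while the brighter *Acsl1* probe had a mean change of 0.00.

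**Figure D1:**
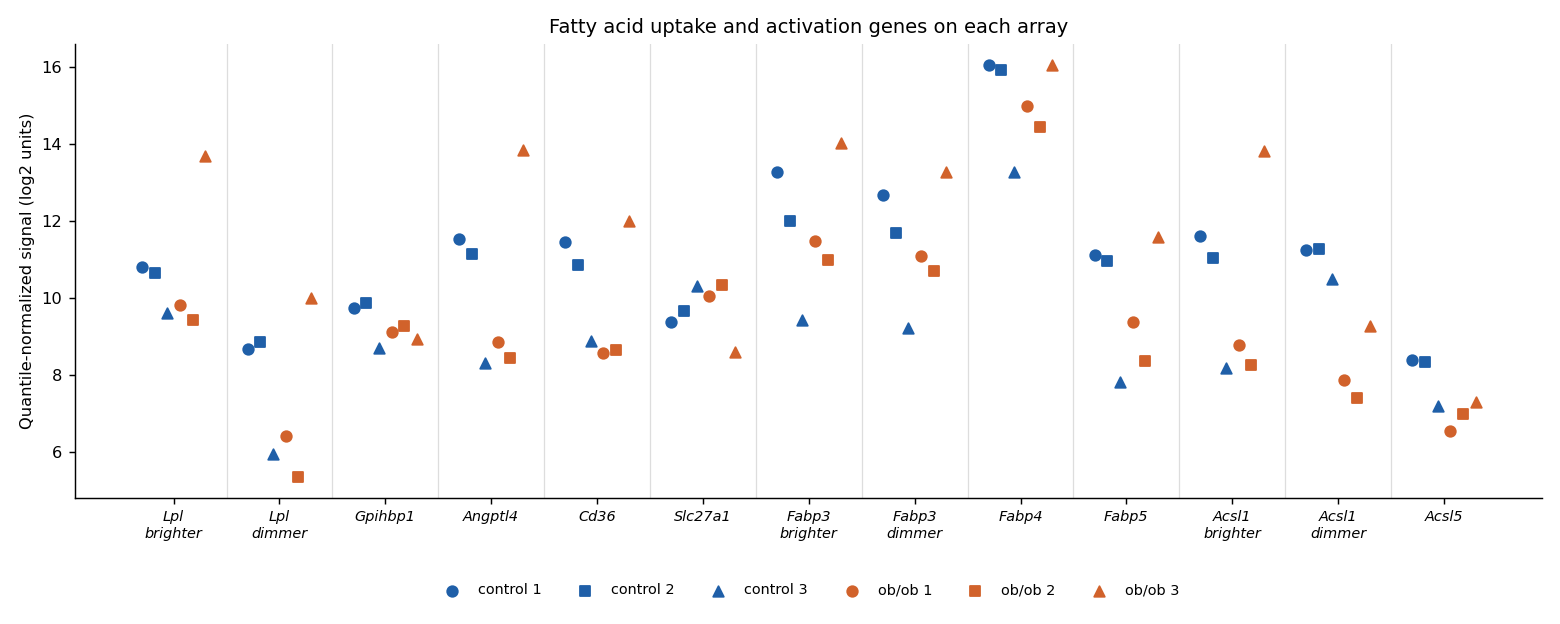
Quantile-normalized signal in log2 units (vertical axis) of all 13 probes (horizontal axis) on each of the 6 arrays, with control arrays in blue, *ob/ob* arrays in orange, and 1 point per array. For most probes control 3 sits among or below *ob/ob* 1 and 2, and *ob/ob* 3 sits with or above control 1 and 2, while the dimmer *Acsl1* probe has all 3 controls above all 3 *ob/ob* arrays.

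At the capillary, *Lpl* encodes lipoprotein lipase. Its brighter probe read 10.80, 10.64, and 9.62 on control arrays 1, 2, and 3 and 9.83, 9.44, and 13.69 on *ob/ob* arrays 1, 2, and 3. *Ob/ob* 3 was the highest array by almost 3 units, and the other 2 *ob/ob* arrays lay below control 1 and 2, with control 3 between them. The change was 0.63 ± 1.15 (SE; exact permutation p = 0.90), with a 95% interval of −2.16 to 3.42. The dimmer *Lpl* probe read 8.68, 8.86, and 5.95 on the control arrays and 6.42, 5.35, and 9.99 on the *ob/ob* arrays, with a change of −0.58 ± 1.37 (SE; exact permutation p = 0.90). Both *Lpl* probes had *ob/ob* 3 highest and control 1 and 2 next, in either order, and their mean changes had opposite signs.

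*Gpihbp1* encodes the endothelial protein that holds lipoprotein lipase on the capillary wall. It read 9.74, 9.88, and 8.70 on the control arrays and 9.11, 9.28, and 8.93 on the *ob/ob* arrays. This was the steadiest gene of the list, with a range of 1.18 over the 6 arrays, and *ob/ob* 3 was not raised here. Control 1 and 2 lay above all 3 *ob/ob* arrays and control 3 below them. The change was −0.34 ± 0.42 (SE; exact permutation p = 0.40), with an interval of −1.35 to 0.68.

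*Angptl4* encodes a secreted inhibitor of lipoprotein lipase that is induced by FAs through PPAR receptors. Its probe read 11.54, 11.14, and 8.32 on the control arrays and 8.86, 8.45, and 13.85 on the *ob/ob* arrays. The values formed a high set of control 1, control 2, and *ob/ob* 3 and a low set of control 3, *ob/ob* 1, and *ob/ob* 2, with more than 2 units between the sets. The group means of 10.33 ± 1.76 and 10.39 ± 3.01 (SD, n = 3 each) differed by 0.06, and the 95% interval of −3.87 to 3.98 leaves the size of a difference undetermined at this number of arrays.

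At the membrane, *Cd36* encodes a long-chain FA translocase of adipocytes, muscle, endothelium, and macrophages. It read 11.46, 10.87, and 8.89 on the control arrays and 8.57, 8.64, and 11.99 on the *ob/ob* arrays. *Ob/ob* 1 and 2 were the 2 lowest arrays, control 3 was within 0.32 of *ob/ob* 1, and *ob/ob* 3 was the highest. The change was −0.67 ± 1.13 (SE; exact permutation p = 0.80), and *ob/ob* was lower in 6 of the 9 pairs of 1 *ob/ob* and 1 control array. In tissue RNA, fewer cells of a type and less RNA per cell cannot be told apart for this gene or for any other of the list.

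The start of *Cd36* is shown because it is the only one of 8 promoters found for 5 of the 10 genes (*Cd36*, *Slc27a1*, *Fabp3*, *Acsl1*, and *Acsl5*) that holds AGGTCA, the hexamer whose repeat is bound by PPAR and RXR receptors. These are the 250 bases before the annotated start, from RefSeq on GRCm38.p6 at chr5:17835897-17836146 on the minus strand, written 5′ to 3′ on the gene's strand. Capitals mark matches on either strand to that hexamer, to the GC box GGGCGG, and to the CCAAT box.
Cd36: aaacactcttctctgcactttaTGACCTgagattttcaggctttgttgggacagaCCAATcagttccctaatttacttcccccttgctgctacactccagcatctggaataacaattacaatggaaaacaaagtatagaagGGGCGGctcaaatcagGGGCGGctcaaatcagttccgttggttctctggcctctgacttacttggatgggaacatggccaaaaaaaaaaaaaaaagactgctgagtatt
Of the 32851 mouse promoters of this length, 14.0% held the hexamer, 32.7% the GC box, and 33.8% the CCAAT box. The full repeat, the hexamer given 2 times with any 1 base between, was in 0.0335% of them and in 0 of these 8, and TATAAA was in 12.4% of them and in 0 of these 8. These matches describe the letters only.

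*Slc27a1* encodes FATP1, a transport protein with acyl-CoA synthetase activity. It read 9.39, 9.67, and 10.31 on the control arrays and 10.05, 10.35, and 8.61 on the *ob/ob* arrays. Its order of arrays was the opposite of that of most other genes of the list, since *ob/ob* 3 was lowest and *ob/ob* 2 and control 3 were highest. The change was −0.12 ± 0.56 (SE; exact permutation p = 0.90), with an interval of −1.47 to 1.22. FATP1 and CD36 act at the same step, yet control 3 was the lowest control and *ob/ob* 3 the highest *ob/ob* array for *Cd36*, and the reverse held for *Slc27a1*.

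In the cytosol, FA-binding proteins carry FAs between membranes and enzymes. *Fabp4* encodes the carrier of adipocytes and is also expressed in capillary endothelium and macrophages. It read 16.06, 15.93, and 13.27 on the control arrays and 14.99, 14.43, and 16.06 on the *ob/ob* arrays. Control 1 and 2 and *ob/ob* 3 were again the 3 highest arrays and control 3 the lowest, and the change was 0.07 ± 0.86 (SE; exact permutation p = 0.90).

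*Fabp3*, the carrier of heart and skeletal muscle that is also abundant in brown fat, had 2 probes. The brighter probe read 13.28, 12.01, and 9.42 on the control arrays and 11.47, 11, and 14.02 on the *ob/ob* arrays. The dimmer probe read 12.67, 11.69, and 9.21 on the control arrays and 11.10, 10.69, and 13.28 on the *ob/ob* arrays. Both put the 6 arrays in the same order, and the difference between them stayed within 0.20 to 0.74 on every array. The changes were 0.59 ± 1.21 and 0.49 ± 1.08 (SE; exact permutation p = 0.80 for both).

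*Fabp5* encodes the carrier first described in epidermis, which adipocytes and macrophages also make. It read 11.13, 10.96, and 7.82 on the control arrays and 9.38, 8.36, and 11.59 on the *ob/ob* arrays, in the same order of arrays as *Fabp3* and *Angptl4*. Control 3 was more than 3 units below control 1 and 2. The change was −0.19 ± 1.18 (SE; exact permutation p = 1), with an interval of −3.04 to 2.65.

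Long-chain acyl-CoA synthetases commit FAs to metabolism. *Acsl1* encodes the main isoform of adipocytes, which in brown fat serves FA oxidation, and its 2 probes disagreed. The brighter probe read 11.62, 11.04, and 8.19 on the control arrays and 8.77, 8.27, and 13.81 on the *ob/ob* arrays, an order shared with *Angptl4*. The dimmer probe read 11.26, 11.27, and 10.49 on the control arrays and 7.86, 7.40, and 9.28 on the *ob/ob* arrays. On the dimmer probe all 3 controls lay above all 3 *ob/ob* arrays, as for 4.19% of all probes, and *ob/ob* was lower in 9 of 9 pairs of arrays. Of all probes, 1.35% were likewise at least 2-fold lower with an unadjusted p under 0.05.

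The dimmer *Acsl1* probe had group means of 11.01 ± 0.45 in controls and 8.18 ± 0.98 in *ob/ob* mice (SD, n = 3 each), a change of −2.83 ± 0.57 (SE) with a 95% interval of −4.21 to −1.45, which did not pass the test over all probes (limma adjusted p = 1, unadjusted p = 0.00218). The exact two-sided permutation test gave p = 0.10, and a lower value cannot be reached with 3 arrays in each group. The brighter probe had group means of 10.28 ± 1.84 and 10.28 ± 3.06 (SD, n = 3 each), with an interval for its change of −4.02 to 4.02. The brighter probe exceeded the dimmer by 0.36, −0.23, and −2.31 on control arrays 1, 2, and 3 and by 0.91, 0.87, and 4.53 on *ob/ob* arrays 1, 2, and 3. This difference was larger on every *ob/ob* array than on any control array, by 2.83 in mean (exact permutation p = 0.10). Averaged over both probes, the change of *Acsl1* was −1.42.

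Before any normalization between arrays, the intensities of the dimmer probe were 4890, 3550, and 758 on the control arrays and 189, 171, and 647 on the *ob/ob* arrays, so the groups did not overlap in the deposited values either. Those of the brighter probe were 6430, 2990, and 154 on the control arrays and 359, 284, and 7240 on the *ob/ob* arrays. All of these spots were well above background.

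**Figure D2:**
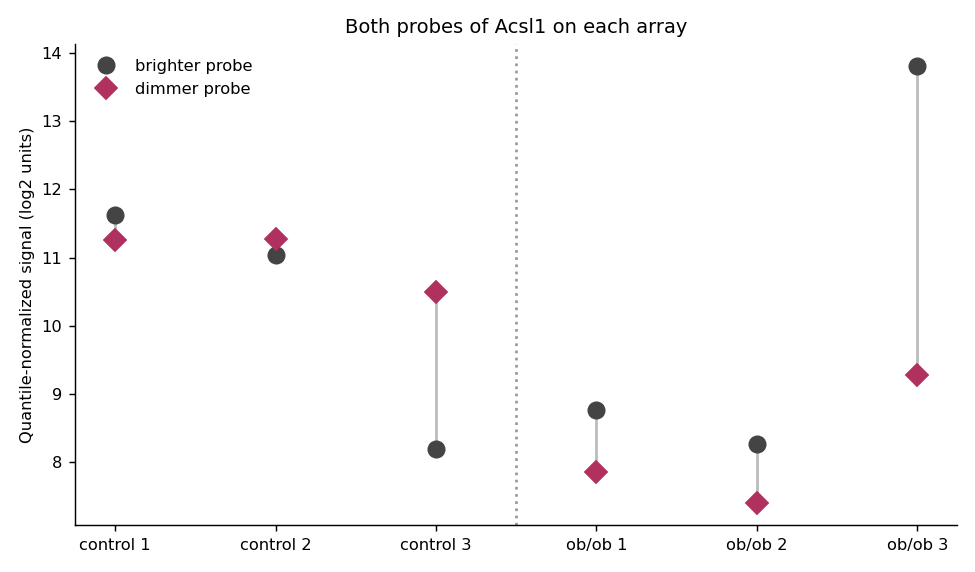
Quantile-normalized signal in log2 units (vertical axis) of the brighter (gray circles) and dimmer (red diamonds) *Acsl1* probe on each array (horizontal axis), joined by a line on each array, with controls left and *ob/ob* right of the dotted line. The brighter-minus-dimmer difference runs from −2.31 on control 3 to 4.53 on *ob/ob* 3 and is larger on every *ob/ob* array than on any control array.

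RefSeq lists 2 starts for *Acsl1* in GRCm38.p6, and both are shown because its probes disagreed. Both probes carry the same RefSeq identifier, and the files used here do not tie either probe to a start. Each line holds the 250 bases before a start, on the plus strand and written 5′ to 3′, with capitals for the same 3 motifs on either strand.
Acsl1, first start, chr8:46470787-46471036: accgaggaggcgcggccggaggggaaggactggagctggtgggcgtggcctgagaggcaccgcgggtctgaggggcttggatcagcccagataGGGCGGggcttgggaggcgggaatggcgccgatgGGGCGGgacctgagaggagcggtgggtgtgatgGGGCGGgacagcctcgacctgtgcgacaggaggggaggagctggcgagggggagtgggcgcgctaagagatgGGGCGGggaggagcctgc
Acsl1, second start, chr8:46490716-46490965: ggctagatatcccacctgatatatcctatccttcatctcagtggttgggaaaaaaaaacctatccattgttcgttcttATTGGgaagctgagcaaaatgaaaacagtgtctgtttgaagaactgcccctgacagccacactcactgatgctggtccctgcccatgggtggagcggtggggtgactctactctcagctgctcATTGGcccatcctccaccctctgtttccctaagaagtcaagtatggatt
The first start is rich in G and C, with a GC content of 72.0%, 20 CpG dinucleotides, 4 GC boxes, and 0 CCAAT boxes. The second start has a GC content of 48.4%, 2 CpG dinucleotides, 0 GC boxes, and 2 CCAAT boxes.

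*Acsl5* encodes an isoform of the outer mitochondrial membrane and endoplasmic reticulum. It read 8.40, 8.34, and 7.19 on the control arrays and 6.54, 6.98, and 7.30 on the *ob/ob* arrays. Control 1 and 2 were above all *ob/ob* arrays, and control 3 lay between *ob/ob* 3 and *ob/ob* 2. The change was −1.04 ± 0.46 (SE), or 2.05-fold lower, with an interval of −2.15 to 0.07 (exact permutation p = 0.20, limma adjusted p = 1). *Ob/ob* was lower in 8 of 9 pairs, and *ob/ob* 3 was only 0.54 above the mean of the other 2 *ob/ob* arrays. Of the 10 genes, *Acsl5* was the only one at least 2-fold lower by its brightest probe, compared with 6.46% of all genes. The dimmer *Acsl1* probe, at 7.11-fold lower, is not in that count.

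**Figure D3:**
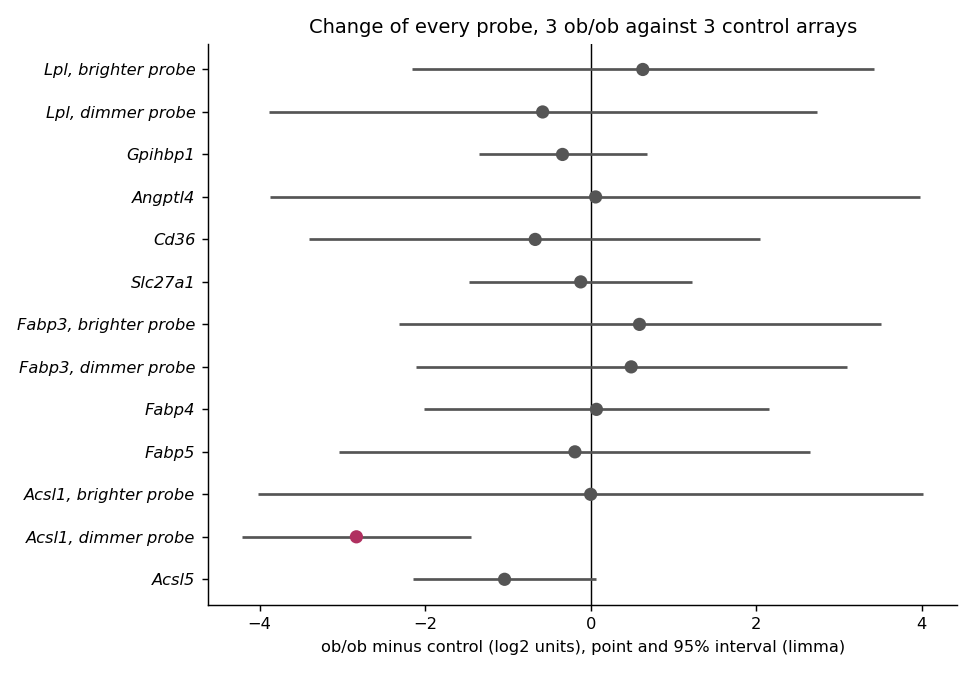
Change between groups (*ob/ob* minus control, log2 units, horizontal axis) for the 13 probes, with points for the limma estimate from 3 arrays per group and bars for its 95% interval. The interval of the dimmer *Acsl1* probe lies wholly below 0, and all other intervals include 0.

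The genes shared a pattern over single arrays. In 8 of 10 genes, control 1, control 2, and *ob/ob* 3 were the 3 highest arrays, compared with 29.8% of all genes. The exceptions were *Slc27a1*, in which these were the 3 lowest, and *Gpihbp1*. Control 3 was the lowest array in 6 of 10 genes, compared with 19.2% of all genes. Control 3 lay below the mean of control 1 and 2 by 1.10 to 3.23 on every probe except the dimmer *Acsl1* probe, where it was 0.77 below, and the *Slc27a1* probe, where it was 0.77 above. *Ob/ob* 3 exceeded the mean of *ob/ob* 1 and 2 by 5.29 on the brighter *Acsl1* probe, 5.19 for *Angptl4*, 4.06 and 4.11 on the *Lpl* probes, and 3.39 for *Cd36*, while for *Gpihbp1* and *Slc27a1* the difference from that mean was −0.27 and −1.59. Over the 6 arrays, the widest ranges were 5.62 for the brighter *Acsl1* probe and 5.54 for *Angptl4*, and the narrowest were 1.18 for *Gpihbp1*, 1.74 for *Slc27a1*, and 1.87 for *Acsl5*. The median range of all genes was 1.80, and 1 in 10 genes exceeded 4.07.

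Left out singly, either array turned the direction of several genes. Without control 3, the change became −0.95 for *Angptl4*, −0.48 and −0.50 on the *Fabp3* probes, −0.83 for *Fabp4*, and 0.13 for *Slc27a1*, and 8 of 10 genes were lower in *ob/ob* mice compared with 54.4% of all genes. Of the 10 genes, 4 were then at least 2-fold lower, compared with 14.5% of all genes. Without *ob/ob* 3, the change became −0.72 on the brighter *Lpl* probe, −1.68 for *Angptl4*, −0.33 and −0.30 on the *Fabp3* probes, −0.37 for *Fabp4*, and 0.41 for *Slc27a1*, and 9 of 10 genes were lower compared with 50.5% of all genes. At least 2-fold lower were 5 of 10, compared with 14.8% of all genes. In each of these 2 settings 1 of 10 genes, *Acsl5*, had an unadjusted limma p under 0.05 by its brightest probe, compared with 9.56% and 10.3% of all genes, at a change of −1.43 without control 3 and −1.22 without *ob/ob* 3.

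With both arrays left out, an alternative chosen after seeing the data that leaves 2 arrays per group, 9 of 10 genes were lower, compared with 46.4% of all genes, and 8 of 10 were at least 2-fold lower, compared with 23.2%. The median change of the 10 genes was then −1.51, compared with 0.07 over all genes. The changes were −2.81 and −3.64 on the *Acsl1* probes, −2.68 for *Angptl4*, −2.56 for *Cd36*, −2.17 for *Fabp5*, −1.09 and −2.88 on the *Lpl* probes, −1.41 and −1.29 on the *Fabp3* probes, −1.28 for *Fabp4*, −1.61 for *Acsl5*, and −0.62 for *Gpihbp1*. *Slc27a1* alone was higher, by 0.66. All 10 genes then had an unadjusted limma p under 0.05, as did 55.1% of all genes. The 2 arrays were dropped because they differed most from their groups, so these p values describe only what was left after that choice. The dimmer *Acsl1* probe, *Acsl5*, *Cd36*, and *Gpihbp1* were lower in *ob/ob* mice in every setting run, at −3.64 to −2.44, −1.61 to −0.79, −2.56 to −0.09, and −0.71 to −0.11, respectively. On the dimmer *Acsl1* probe the groups did not overlap, so leaving out arrays could not turn its sign.

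**Figure D4:**
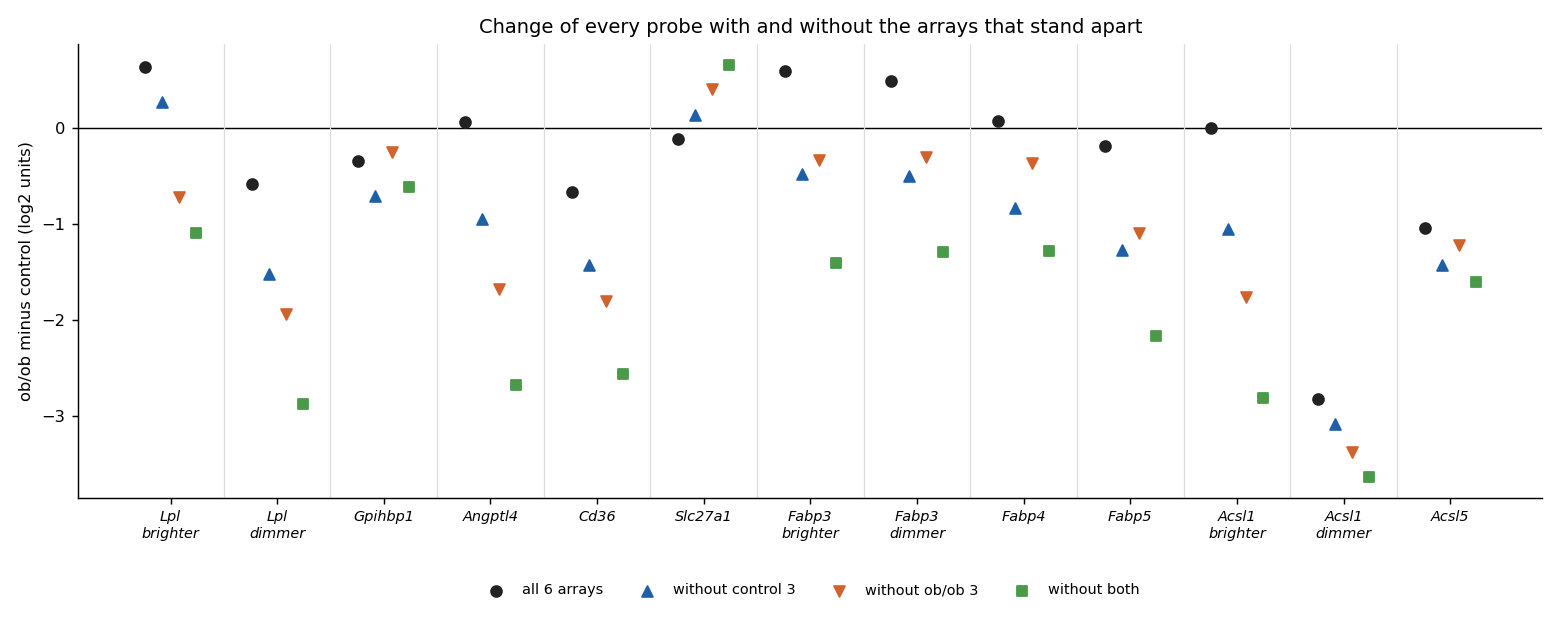
Change between groups (*ob/ob* minus control, log2 units, vertical axis) for the 13 probes (horizontal axis) with all 6 arrays, without control 3, without *ob/ob* 3, and without both. The brighter *Lpl*, *Angptl4*, *Fabp3*, *Fabp4*, and *Slc27a1* probes cross 0, while the dimmer *Acsl1* probe stays between −3.64 and −2.83.

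Within the scan that held both groups, *ob/ob* 1 could be compared with control 1 and 3, with 1 *ob/ob* array and hence no test. For the dimmer *Acsl1* probe, *ob/ob* 1 differed by −3.40 from control 1 and by −2.64 from control 3. The differences were −1.87 and −0.66 for *Acsl5* and −2.89 and −0.32 for *Cd36*, so *ob/ob* 1 was below both controls of its scan on these 3 probes. From control 1 and control 3, *ob/ob* 1 differed by −2.68 and 0.55 for *Angptl4* and by −2.85 and 0.58 on the brighter *Acsl1* probe. For *Fabp4* it differed by −1.07 and 1.72, and on the *Fabp3* probes by −1.81 and 2.05 and by −1.58 and 1.88. *Ob/ob* 1 thus lay between the 2 controls on these probes. Against the mean of the 2 controls, *Angptl4* differed by −1.07 and the brighter *Acsl1* probe by −1.13. *Fabp4* was 0.32 higher, and the *Fabp3* probes were 0.12 and 0.15 higher.

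Other genes of the same pathway were taken from a list sorted by function. Of 57 genes listed, 54 were tested, 36 were lower and 18 higher in *ob/ob* mice, and the median change was −0.20. Over all genes, 57.2% were lower and the median was −0.09. None passed an adjusted p under 0.05. With an unadjusted limma p under 0.05, 4 of 54 were lower, compared with 1.69% of all genes, and 0 were higher, compared with 2.04%. The groups did not overlap for 7 lower and 1 higher gene, compared with 4.22% and 3.78% of all genes.

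The gene of this list with the lowest p was *Acbd4*, which encodes an acyl-CoA-binding protein. It read 11.59, 12.70, and 11.21 on the control arrays and 8.22, 7.99, and 8.32 on the *ob/ob* arrays. All controls, control 3 included, were almost 3 units or more above all *ob/ob* arrays, *ob/ob* 3 included. The change was −3.66 ± 0.46 (SE), or 12.6-fold lower (limma adjusted p = 0.841). *Acsf3*, which encodes a mitochondrial malonyl-CoA synthetase, read 10.99, 10.74, and 8.35 on the control arrays and 7.89, 7.88, and 8.12 on the *ob/ob* arrays, with a change of −2.07 ± 0.73 (SE). Control 3 lay just above *ob/ob* 3, and control 1 and 2 were more than 2 units higher.

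*Lmf1* encodes an endoplasmic reticulum protein that lipoprotein lipase needs to fold. It read 8.83, 9.01, and 8.45 on the control arrays and 7.80, 7.95, and 7.32 on the *ob/ob* arrays, with a change of −1.07 ± 0.35 (SE). *Mfsd2a*, a transporter of lysophospholipids that carry FAs, read 6.10, 7.89, and 5.89 on the control arrays and 4.95, 4.79, and 4.98 on the *ob/ob* arrays, with a change of −1.72 ± 0.58 (SE). For both genes *ob/ob* 3 lay with the other *ob/ob* arrays. *Angptl8*, whose protein takes part in inhibiting lipoprotein lipase, was named after its values were seen. It read 9.31, 9.46, and 9.46 on the control arrays and 8.63, 8.83, and 7.02 on the *ob/ob* arrays, with no overlap and a change of −1.25. For these 5 genes the exact permutation p was 0.10, and the limma adjusted p of all except *Acbd4* was 1. Without control 3, without *ob/ob* 3, and without both, the changes were −3.97, −3.73, and −4.04 for *Acbd4*, −2.90, −2.14, and −2.98 for *Acsf3*, −1.23, −0.89, and −1.04 for *Lmf1*, −2.09, −1.75, and −2.12 for *Mfsd2a*, and −1.22, −0.68, and −0.65 for *Angptl8*. The groups of all 5 did not overlap, so leaving out arrays could not turn their direction, and only the sizes are informative. *Angptl8* moved most as a share of its change.

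By function, 9 of 12 other acyl-CoA synthetases were lower in mean, with a median change of −0.69, and 5 of 7 acyl-CoA thioesterases were lower, with a median of −0.70. Of the other intracellular carriers, 10 of 12 were lower, with a median of −0.17. These counts compare with 57.2% of all genes lower in mean. Partners of lipoprotein lipase were split at 4 lower and 3 higher with a median of −0.02, membrane transport genes at 6 lower and 6 higher with a median of −0.06, and lipoprotein receptors at 2 lower and 2 higher with a median of −0.09. Without control 3, without *ob/ob* 3, and without both, 39, 38, and 35 of the 54 genes were lower, with medians of −0.21, −0.26, and −0.46. Of all genes, 54.4%, 50.5%, and 46.4% were lower in these settings. Of the other intracellular carriers, 6, 6, and 4 of 12 were then lower, with medians of −0.01, −0.01, and 0.12, so the count of 10 rested on these arrays. The thioesterases had medians of −0.87, −1.35, and −1.53, and the other synthetases −0.70, −0.64, and −0.63. Membrane transport genes had 9 of 12 lower in each of the 3 settings, with medians of −0.22, −0.13, and −0.74. Partners of lipoprotein lipase had medians of −0.06, −0.47, and −0.51, and lipoprotein receptors −0.06, −0.16, and −0.26.

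Markers of the cells that express these genes varied over the arrays as well. The counts of lower markers given below compare with 57.2% of all genes lower in mean. The tissue label was checked against *Ucp1*, the uncoupling protein of brown adipocytes, which was detected on all 6 arrays and read 13.05, 11.72, and 9.48 on the control arrays and 8.93, 9.12, and 10.03 on the *ob/ob* arrays. Of 10 brown adipocyte markers, 8 were lower in *ob/ob* mice, with a median change of −2.07 and a summed level of 16.47, 15.77, and 12.68 on the control arrays and 12.26, 12.12, and 13.60 on the *ob/ob* arrays. The summed level was thus highest of the *ob/ob* arrays on *ob/ob* 3, while the median level, at 8.11, 8.06, and 7.07 on the *ob/ob* arrays, was lowest there. Among them *Zic1*, a transcription factor of the brown lineage, read 9.66, 10.43, and 9.08 on the control arrays and 7.97, 7.90, and 7.06 on the *ob/ob* arrays, a change of −2.08 ± 0.48 (SE). *Elovl3*, an FA elongase of active brown fat, read 9.20, 9.35, and 5.48 on the control arrays. It was not well above background on any *ob/ob* array, where it read 3.30, 3.92, and 3.29. Each *ob/ob* array was therefore set at the higher of its own signal and the lowest signal well above background there. By the group means it was then at least 15.8-fold lower in *ob/ob* mice. This bound concerns the means only and does not cover the spread between arrays. *Elovl3* is among the 8 lower markers, although it passed the filter on detection through the control arrays alone. Neither *Zic1* nor *Elovl3* had *ob/ob* 3 raised, unlike *Lpl*, *Angptl4*, and the brighter *Acsl1* probe. Both were named partly for having no overlap between groups, and they do not stand for the list. Most of the other brown adipocyte markers, *Ucp1* among them, were higher on *ob/ob* 3 than the mean of *ob/ob* 1 and 2. The differences from that mean among these other markers ran from −1.46 to 3.88.

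Of 6 general adipocyte markers, 5 were lower, with a median change of −0.57 and a summed level of 11.67 to 14.88 on the control arrays and 11.75 to 14.17 on the *ob/ob* arrays. Of 8 endothelial markers, 7 were lower, with a median of −1.08 and a summed level of 12.73 to 13.55 on the control arrays and 12.29 to 12.68 on the *ob/ob* arrays. *Pecam1*, an adhesion protein of endothelium, read 11, 11.19, and 12.49 on the control arrays and 12.44, 12.58, and 9.80 on the *ob/ob* arrays, an order like that of *Slc27a1*.

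Of 7 macrophage markers tested, 5 were higher, with a median of 0.56 and a summed level of 9.68 to 11.01 on the control arrays and 11.09 to 11.19 on the *ob/ob* arrays. *Trem2*, a receptor of macrophages that take up lipid, read 4.88, 4.97, and 5.37 on the control arrays and 7.18, 6.26, and 8.53 on the *ob/ob* arrays, a change of 2.25 ± 0.61 (SE). *Adgre1*, which defines tissue macrophages, read 7.84, 8.45, and 8.78 on the control arrays and 8.39, 8.61, and 7.42 on the *ob/ob* arrays.

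Of 8 skeletal muscle markers, 7 were lower, with a median of −1.03 and a summed level of 11.89 to 15.31 on the control arrays and 9.61 to 15.67 on the *ob/ob* arrays. *Ckm*, the muscle creatine kinase, read 7.31, 7.68, and 5.71 on the control arrays and 5.56, 5.41, and 8.60 on the *ob/ob* arrays. *Mylpf*, a myosin light chain of fast muscle that was well above background on 2 of the 3 control arrays, read 4.14, 3.68, and 5.10 on the control arrays and 5.51, 5.59, and 5.39 on the *ob/ob* arrays, a change of 1.19 ± 0.44 (SE). The median level of the muscle markers was 9.76 and 10.14 in control 1 and 2 and 10.95 in *ob/ob* 3, compared with 7.79 in control 3 and 6.00 and 6.18 in *ob/ob* 1 and 2. The median of the 10 FA genes was 11.30 and 10.91 in control 1 and 2 and 12.84 in *ob/ob* 3, compared with 8.79 in control 3 and 9.24 and 8.96 in *ob/ob* 1 and 2. *Pecam1*, *Adgre1*, and *Ckm*, which define the other cell types, were above background on all 6 arrays, so none was at 0. The median level of the general adipocyte markers was 10.43 and 9.94 in control 1 and 2 and 10.18 in *ob/ob* 3, compared with 8.59 in control 3 and 8.26 and 8.36 in *ob/ob* 1 and 2. That of the endothelial markers was 9.12 and 9.21 in control 1 and 2 and 8.51 in *ob/ob* 3, compared with 7.25 in control 3 and 6.23 and 5.89 in *ob/ob* 1 and 2. The FA genes and the general adipocyte, endothelial, and muscle markers thus had the same 3 arrays high by their medians. The medians of the brown adipocyte and macrophage markers did not show this. By summed level, however, the brown adipocyte markers were also highest on these 3 arrays. Their summed level was 16.47 and 15.77 in control 1 and 2 and 13.60 in *ob/ob* 3. It was 12.68 in control 3 and 12.26 and 12.12 in *ob/ob* 1 and 2. The endothelial markers did not keep the pattern by summed level, which was lowest on *ob/ob* 3, at 12.29. Their summed level was 13.55, 13.50, and 12.73 on control arrays 1, 2, and 3 and 12.55 and 12.68 on *ob/ob* 1 and 2.

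Of the 39 marker genes tested, *Zic1* was lower with no overlap between groups and *Trem2* and *Mylpf* were higher, compared with 4.22% and 3.78% of all genes. *Elovl3* was also lower with no overlap, but it passed the filter on detection through the control arrays alone and is not set against these shares. These 4 were named for their p and that separation, so it is a description. For *Zic1*, *Trem2*, and *Mylpf* the exact permutation p was 0.10 and the limma adjusted p was 1. No test is given for *Elovl3*, since it passed the filter through 1 group only. Without control 3, without *ob/ob* 3, and without both, the changes were −2.40, −1.79, and −2.11 for *Zic1*, 2.40, 1.65, and 1.80 for *Trem2*, and 1.59, 1.24, and 1.64 for *Mylpf*. Those of *Elovl3* were −5.77, −4.40, and −5.67, from *ob/ob* signals that were not well above background. *Ucp1* changed by −2.06 with all arrays and by −3.03, −2.39, and −3.36 in these settings. The changes of *Pecam1*, *Adgre1*, and *Ckm* were 0.05, −0.21, and −0.38 with all arrays, 0.51, 0, and −0.97 without control 3, 0.95, 0.15, and −1.41 without *ob/ob* 3, and 1.42, 0.36, and −2.01 without both. The median changes without control 3, without *ob/ob* 3, and without both were −2.72, −2.09, and −2.99 for the brown adipocyte markers, −1.04, −1.09, and −1.87 for the general adipocyte markers, −1.56, −1.43, and −1.91 for the endothelial markers, 0.73, 0.28, and 0.49 for the macrophage markers, and −1.63, −2.23, and −2.95 for the muscle markers. Each list thus kept the sign of its median in these settings. The part of these cell types in the values of the 10 genes was not tested.

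**Figure D5:**
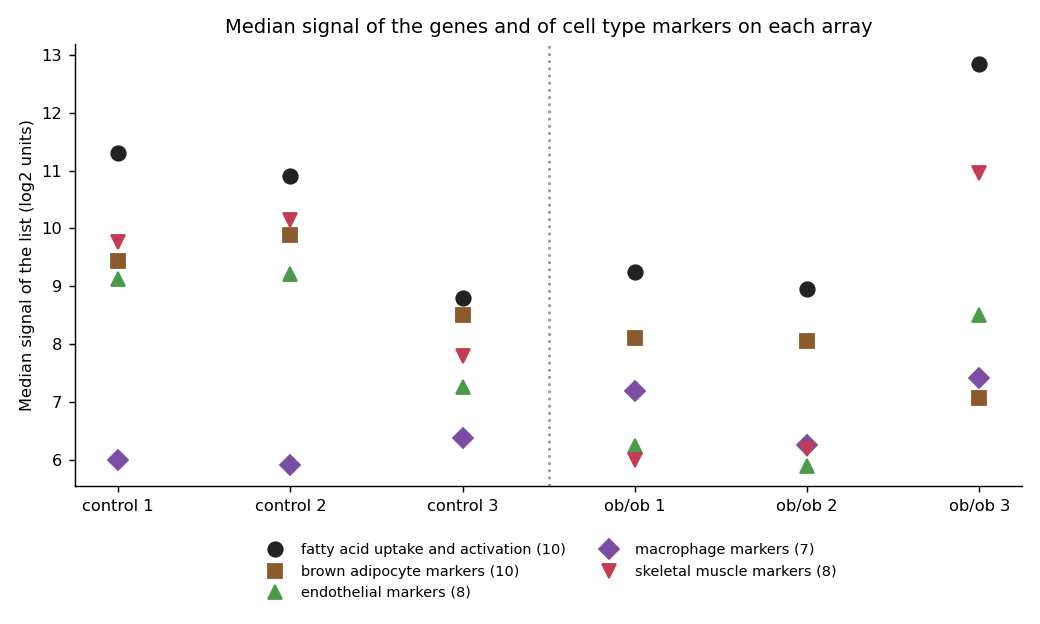
Median signal in log2 units (vertical axis) of the 10 FA uptake and activation genes and of the brown adipocyte, endothelial, macrophage, and skeletal muscle markers on each array (horizontal axis), with controls left and *ob/ob* right of the dotted line and the number of genes in parentheses. The medians of the FA genes, the endothelial markers, and the muscle markers are highest on control 1, control 2, and *ob/ob* 3. The median of the brown adipocyte markers is lowest on *ob/ob* 3, although their summed level there is above that of control 3 and of *ob/ob* 1 and 2. The summed level of the endothelial markers is lowest on *ob/ob* 3.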

How the data were processed

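Total RNA of 3 control and 3 *ob/ob* iBAT samples was amplified, labeled with Cy3, and hybridized to Agilent single-color mouse arrays. The authors deposited, for each array, spot intensities from Agilent Feature Extraction (version 11.0.1.1, per the labels), which subtracts background within an array and leaves differences in brightness between arrays. Log2 values, quantile normalized by the authors with GeneSpring, were deposited as well. Their columns correlated at 0.987 to 0.998 with the scanner values, and they served as an alternative.

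Of 39429 probes, 104 were dropped because every spot was flagged as an outlier on 1 or more arrays. Where a probe had several spots, their log2 signals were averaged, and the arrays were then quantile normalized. The 35448 probes well above background on at least 3 of 6 arrays were tested with limma (version 3.58.1, R version 4.3.3), and p values were adjusted by Benjamini-Hochberg over all of them. Of 28623 probes whose identifier is a RefSeq accession, 27174 received a symbol from the RefSeq annotation of GRCm38.p6, which was used for names and promoter sequences only, since the array is annotated on another build. The probe with the highest mean signal over all 6 arrays stood for a gene in counts, also where arrays were left out. Every probe of the 10 genes was reported. Summed levels are log2 of the summed linear signals of a list. The limma code was checked on simulated data. Python (version 3.11.15) with pandas (2.3.3), matplotlib (3.10.9), and numpy (2.4.6) drew the figures.

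The 10 genes and the lists of other pathway genes and markers were chosen with earlier results of these data known. Named beside the 10 genes are *Lep*, *Ucp1*, *Pecam1*, *Adgre1*, *Ckm*, and at most 8 list genes by p with an unadjusted p under 0.05 and no overlap between groups, and *Angptl8*, named after its values were seen. Alternatives were scaling to the 75th percentile, normexp background correction (offset 50) on the median spot signal in place of the mean, which was not in the files used, the authors' values, other detection filters, the methods' t-test, limma with trend and robust estimation, replicate number or scan as a block, and each array left out. Leaving out control 3 and *ob/ob* 3 together was added after seeing the data. No source used here names the test behind the authors' p values for the arrays.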

Additional observations from a re-analysis of the deposited data

How the results depend on the processing

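With limma, 0 of 35448 probes passed an adjusted p under 0.05, and 1245 had an unadjusted p under 0.05. The methods' t-test also gave 0 after Benjamini-Hochberg adjustment, limma with trend and robust estimation gave 1, and leaving out control 3 and *ob/ob* 3 together gave 16259. Probes at least 2-fold higher and lower with an unadjusted p under 0.05 numbered 598 and 478. They numbered 139 and 312 with scaling to the 75th percentile, 135 and 315 with normexp, 327 and 313 by the methods' t-test, 35 and 113 with the scan as a block, and 5869 and 6789 with both arrays left out, and 394 were higher with detection required on all 6 arrays. Scaling to the 75th percentile moved the median change of all probes from −0.07 to −0.32 and the share of higher calls from 55.6% to 30.8%. The 4 pathway genes with an unadjusted p under 0.05 became 2 with the scan as a block and 29 with both arrays left out, and the 0 of the 10 FA genes became 10. Leaving out 1 array gave 112 (without control 2) to 1762 (without control 3) probes higher, 173 to 1170 lower (the same arrays), 0 to 1 of the FA genes and 1 to 9 of the pathway genes with an unadjusted p under 0.05, and 4 to 9 FA genes lower in mean.

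The same replicate numbers occur in both groups, and same-numbered arrays deviated from their group means in opposite directions (correlations of −0.781, −0.658, and −0.850). Deviations from a group mean are not independent of each other, and the arrays that stood apart from their groups enter them all. These correlations therefore cannot show whether the numbers pair the samples. With the replicate number as a block, 139 probes were higher and 220 lower, and 1 pathway gene had an unadjusted p under 0.05.

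Of the changes given for single probes, those that changed sign were as follows, and the cause was not tested. *Angptl4* was −0.27 with scaling to the 75th percentile. The brighter *Acsl1* probe, at 0.00, was 0.01 with the authors' values. With the scan as a block, the brighter *Lpl* probe was −0.38, *Angptl4* −1.07, and *Slc27a1* 0.20. With both arrays left out, the brighter *Lpl* probe was −1.09, *Angptl4* −2.68, the *Fabp3* probes −1.41 and −1.29, *Fabp4* −1.28, and *Slc27a1* 0.66. Leaving out 1 array moved the *Lpl* probes over −0.72 to 1.41 and −1.94 to 0.37, *Angptl4* over −1.68 to 1.02, *Slc27a1* over −0.46 to 0.41, the *Fabp3* probes over −0.48 to 1.45 and −0.50 to 1.23, *Fabp4* over −0.83 to 0.56, *Fabp5* over −1.27 to 0.51, and the brighter *Acsl1* probe over −1.76 to 1.01. The dimmer *Acsl1* probe stayed at −3.38 to −2.44. The scan as a block rests on 1 *ob/ob* array.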
